A study of Gallus gallus with 4 samples.

Results

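The genes described are those that build glycosaminoglycan chains and add sulfate to them. They were given as a list of 50 symbols, of which IMPAD1 and BPNT2 name the same gene, which leaves 49. Of these, 45 stood alone as the symbol of at least 1 probe set on the array, out of 13009 genes in all, and were read on 94 probe sets. The symbols CHST7, CHST11, CHST14 and SLC35D2 were not matched to a probe set and are not analysed here. Each gene is represented by its brightest probe set, by mean log2 intensity over the arrays. By that probe set, 38 of the 45 genes were bright enough to enter the tests, among 7805 genes tested. SLC26A2, XYLT2, CHST13, EXTL2, NDST1, CHST1 and CHST9 were too dim.

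Glycosaminoglycans are long sugar chains carried by proteoglycans, and in cartilage the chondroitin sulfate chains of aggrecan hold the water that lets the tissue bear load. Each chain starts from a short linker on the core protein, grows by alternating sugars taken from nucleotide sugar donors, and is sulfated in the Golgi with the donor PAPS (3′-phosphoadenosine 5′-phosphosulfate). The roles given here are known largely from human and mouse, where defects in several of these genes cause skeletal dysplasias.

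The tissue was tibial cartilage of white leghorn chicken embryos, with no genetic change or agent. Transient cartilage alone (TC), which is later replaced by bone, and articular cartilage dissected with some transient cartilage (TC+AC) came from eggs incubated to E12 (embryonic day 12, HH stage 38) or E14 (HH stage 40). A single array was run for each of the 4 tissue and stage pairs, with RNA pooled from many dissected tissues, so no difference within a stage or a tissue has a replicate check. The tissue comparison asks what separates the cartilage kept at the joint from the cartilage that bone replaces.

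The cartilage collagen gene COL2A1 had intensities from 2916 to 6527 on the 4 arrays. The summed intensity of 9 hypertrophic cartilage genes was 8360 and 8606 in TC against 735 and 808 in TC+AC, and that of 7 joint and articular genes was 1192 and 883 in TC against 1790 and 1639 in TC+AC. The joint and articular genes were split. Of 6 tested, 2 (BARX1 and TPPP3) were at least 2-fold higher in TC+AC at E12 (4.46% of all genes). At E14, 3 (BARX1, TPPP3 and SFRP2) were higher (20.3%) and 1, ENPP2, was lower (15.6%). GDF5 and ERG had E14 log2 differences of -0.02 and -0.37. The TC+AC array at E14 was the dimmest as deposited, with a median intensity of 13.1 against 20.6 to 23.1 on the others. Its 3′ over 5′ intensity ratio, a sign of RNA breakdown when high, was 7.48 for beta-actin and 3.97 for EF1-alpha, against 1.99 to 4.01 and 1.45 to 1.64. For GAPDH the ratio differed little, at 1.59 against 1.18 to 1.55. The TC array at E14 stood apart in its makeup. The summed intensity of 10 cartilage genes was 47529 there against 13114 to 23951 on the other arrays, that of 5 erythroid genes was 9058 against 17882 to 18991, and that of 7 skeletal muscle genes was 134 against 577 to 697. Of those 7 muscle genes, 2 lay above background in TC at E14 and 3 to 5 on the other arrays. In such bulk samples fewer cells of a type and less RNA per cell cannot be told apart.

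In TC, 16 of these genes had at least 2-fold more signal at E14 than at E12, and in TC+AC 2 did. In TC this was 16 of the 38 genes tested, against 8.3% of all genes tested, and 2 were at least 2-fold lower (14.1% of all genes). In TC+AC, 2 were at least 2-fold higher (4.71% of all genes) and 3 lower (7.92%). The TC+AC counts depended on the scaling: 1 higher and 5 lower with arrays centred on their medians (1.23% and 22.7% of all genes), 0 and 25 with values as deposited (0.102% and 70.4%), and 0 and 19 when scaled on hybridization controls (0.192% and 61.6%). The median log2 difference over the 38 was 0.74 in TC and 0.01 in TC+AC, where all tested genes had medians of -0.13 and -0.05. TC at E14 was the brightest array by at least 2-fold for 11 of the 38 (4.45% of all genes), and the brightest by any margin for 24 (30.3%). When the scaling was redone without the TC+AC array at E14, 15 genes were at least 2-fold higher in TC at E14 (8.9% of all genes). For the genes higher in TC the count was 13 with median centring (7% of all genes), 15 as deposited (9.62%) and 21 with hybridization control scaling (21.9%). The median log2 difference of all genes between the stages of TC+AC was -0.05 after quantile normalization and -0.54, -1.33 and -1.18 with these 3 scalings, and single TC+AC stage differences below, given after quantile normalization, shift with it. These 2-fold counts carry no test.

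**Figure D1:**
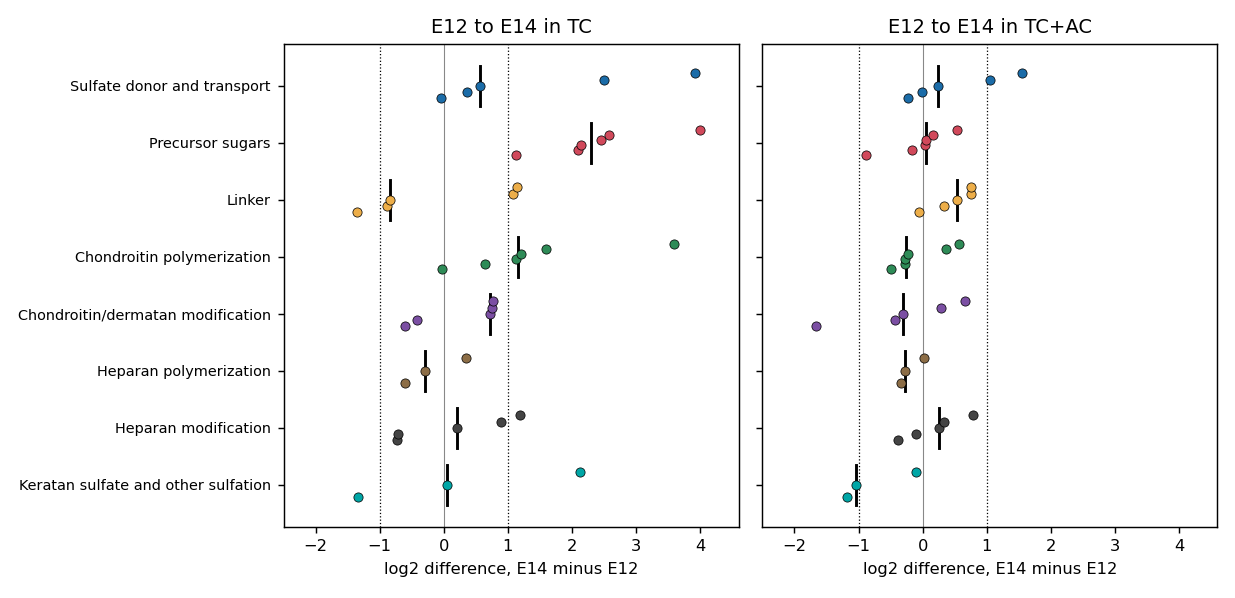
Log2 difference between E14 and E12 in TC (left) and in TC+AC (right) for the 38 tested genes, 1 point a gene, grouped by role, with the group's median as a black bar and dotted lines at 2-fold. All 6 precursor sugar genes lie right of the 2-fold line in TC and none of them does in TC+AC.

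The tissues differed in few of these genes at E12 and in more at E14, and the same held over all genes tested. Across all 7805 genes the Pearson correlation of the 2 tissues was 0.931 at E12 and 0.773 at E14. At E12, 2 of the 38 genes were at least 2-fold higher in TC+AC (4.46% of all genes) and 1 was lower (3.28%), with a median log2 difference of -0.04. At E14, 15 were at least 2-fold lower in TC+AC (15.6% of all genes) and 5 higher (20.3%), with a median of -0.75 against 0.05 over all genes. The E14 tissue comparison and the stage comparison in TC share the TC array at E14, and are given side by side only. This comparison moved with the scaling. The median E14 log2 difference over all genes was 0.05 after quantile normalization, -0.26 with arrays centred on their medians, -1.08 as deposited and -1.63 when scaled on hybridization controls. As deposited, 27 of the members tested were at least 2-fold lower in TC+AC at E14, where 53.7% of all genes were; the single E14 tissue differences below are likewise those after quantile normalization.

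**Figure D2:**
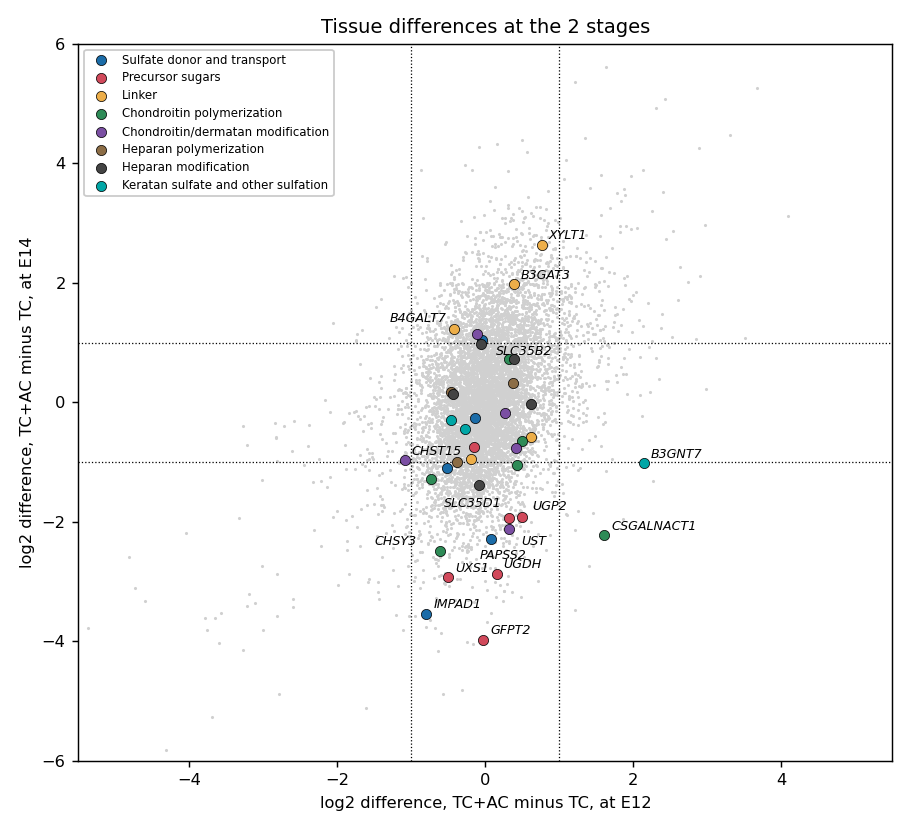
Log2 difference of TC+AC minus TC at E12 (horizontal) and at E14 (vertical), with all tested genes in grey, the 38 glycosaminoglycan genes coloured by role and dotted lines at 2-fold. The genes spread from -3.97 to 2.64 at E14 and from -1.09 to 2.14 at E12.

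Over all 4 arrays, limma with tissue and stage as terms called 1 of the 38 for tissue (IMPAD1, lower in TC+AC; 1.47% of all genes were called) and 1 for stage (PAPSS2, higher at E14; 0.256% of all genes). By direction, 0.743% of all genes were called higher and 0.73% lower in TC+AC, and 0.141% higher and 0.115% lower at E14. At an unadjusted p under 0.05 there were 8 for tissue (13.4% of all genes) and 6 for stage (6.91%). The fit has 1 residual degree of freedom a gene, the disagreement of the 2 stages or tissues, and takes most of its variance from all genes together. Of the 38, 0 were at least 2-fold apart the same way at both stages, where 2.49% of all genes were higher and 1.4% lower in TC+AC. By measured values 1 (PAPSS2) was at least 2-fold higher at E14 in both tissues (0.897% of all genes) and 1 (CHST2) lower (1.49%). PAPSS2 lay below background at E12, and with background in place of such values 0 were higher in both. The p-values rest on the disagreement of the 2 stages or tissues, pooled mostly over all genes, and not on the spread between embryos.

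The first group supplies activated sulfate. IMPAD1, the Golgi phosphatase that clears the by-product left when PAPS gives up its sulfate, had intensities of 113 in TC and 64.8 in TC+AC at E12, and of 639 in TC and 55.1 in TC+AC at E14. Both TC values lay above both TC+AC values, and TC at E14 was far above the rest. IMPAD1 was 1.74-fold lower in TC+AC at E12 and 11.6-fold lower at E14 (fitted log2 difference -2.17 ± 0.56 SE, limma adjusted p = 0.044, 4 arrays). The call was lost with deposited values (-2.59, adjusted p = 0.24), hybridization control scaling (-2.99, 0.25), no filter on dim genes (-2.17, 0.70), the mean of probe sets (0.22) and no term for stage (0.38). It was also lost when an array other than TC at E12 was left out, with fitted values between -2.28 and -0.92.

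PAPSS2, which makes PAPS and is mutated in a human spondyloepimetaphyseal dysplasia, had 11.7 in TC and 12.2 in TC+AC at E12, and 176 in TC and 35.9 in TC+AC at E14. The E12 values lay below background, so the stage difference is a bound: at least 9.33-fold in TC and at least 1.88-fold in TC+AC (fitted on measured values 2.74 ± 0.54, limma adjusted p = 0.031). The measured TC+AC log2 difference of 1.55 was 0.63 as deposited and 0.78 with hybridization control scaling. PAPSS2 had a mean log2 intensity of 4.945, where CHST1, left out as too dim, had 4.878. With log2 values of 3.54 and 3.61 at E12, PAPSS2 entered the test through the same E14 values that the stage test compared. The other PAPSS2 probe set lay below background on both E14 arrays and little above it at E12, so no stage difference is read from it, and the mean of both probe sets gave 0.78 (adjusted p = 0.94). The call thus rests on 1 probe set, and it was lost as well with deposited values (adjusted p = 0.73) and when any of the 4 arrays was left out, with fitted values between 1.59 and 3.88.

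PAPSS1, the second PAPS synthase, had 1783 in TC and 1243 in TC+AC at E12, and 2653 and 1237 at E14. It was bright on every array and lower in TC+AC at both stages, by 1.43-fold and 2.15-fold (limma adjusted p = 0.50). Its other probe sets, also above background throughout, had log2 tissue differences of -3.16 and -2.90 at E14 where the brightest had -1.10, and -0.74 and -0.47 at E12. The PAPS transporters carry the donor into the Golgi. SLC35B2 had 223 in TC and 215 in TC+AC at E12, and 215 in TC and 444 in TC+AC at E14, while SLC35B3 stayed between 107 and 152 on its brightest probe set. A second SLC35B3 probe set, above background throughout, had 98.1 in TC at E12 and 34.1 in TC at E14, with a tissue difference of 0.98 at E14. The SLC35B2 tissue difference at E14 was 1.04, and it turned to -0.22 with deposited values and -0.78 with hybridization control scaling. A dimmer SLC35B2 probe set had 53.95 in TC at E14 and lay below background in TC+AC. SLC26A2, the cell surface sulfate transporter of diastrophic dysplasia, was dim: 17.6 in TC and 1.9 in TC+AC at E12, both below background, and 26.4 and 29.0 at E14.

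The nucleotide sugar group was the one in which each tested member was at least 2-fold higher in TC at E14 than in TC at E12, 6 of 6 (8.3% of all genes). The median log2 difference was 2.30. In TC+AC none of the 6 was (4.71% of all genes) and the median was 0.05. In TC+AC 4 were at least 2-fold lower at E14 as deposited (70.4% of all genes), 3 with hybridization control scaling (61.6%) and 1 with median centring (22.7%). With deposited values or median centring it was 5 of 6 in TC, GFPT1 being the exception at 0.86 and 0.69. Of its members, UGP2, UGDH and UXS1 act in successive steps. UGP2, which makes UDP-glucose, had 687 in TC and 964 in TC+AC at E12, and 3762 in TC and 992 in TC+AC at E14. UGDH, which oxidizes UDP-glucose to the glucuronic acid donor, had 327 and 364 at E12, and 1441 and 198 at E14. UXS1, which turns that donor into UDP-xylose for the linker, had 40.4 and 28.4 at E12, and 241 and 31.6 at E14. For all 3, TC at E14 was the high array.

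SLC35D1, which carries UDP sugars into the endoplasmic reticulum and is mutated in a human lethal chondrodysplasia, had 94.9 in TC and 119 in TC+AC at E12, and 405 and 106 at E14. GFPT1 and GFPT2 catalyse the first step towards UDP-hexosamines. GFPT2 had 59.1 and 58.0 at E12, and 947 in TC and 60.2 in TC+AC at E14, a 16.0-fold stage difference in TC. GFPT1 had 1507 and 1361 at E12, and 3306 and 1984 at E14. None of the 6 passed limma for tissue (adjusted p from 0.10 for GFPT2 to 0.77 for GFPT1) or for stage (0.25 for GFPT2 to 0.93 for UGDH). A second GFPT2 probe set, above background on all 4 arrays, had log2 stage differences of 1.25 in TC and 1.29 in TC+AC and a tissue difference of 0.15 at E14. Another had 446 in TC and a value below background in TC+AC at that stage, the order seen on the brightest. A dimmer UGP2 probe set had -0.89 in TC, against 2.45 on the brightest. For UGDH a second probe set, above background throughout, had 1.01 in TC, against 2.14 on the brightest. The UGDH tissue difference at E14 was -0.65 on that probe set, against -2.87.

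**Figure D3:**
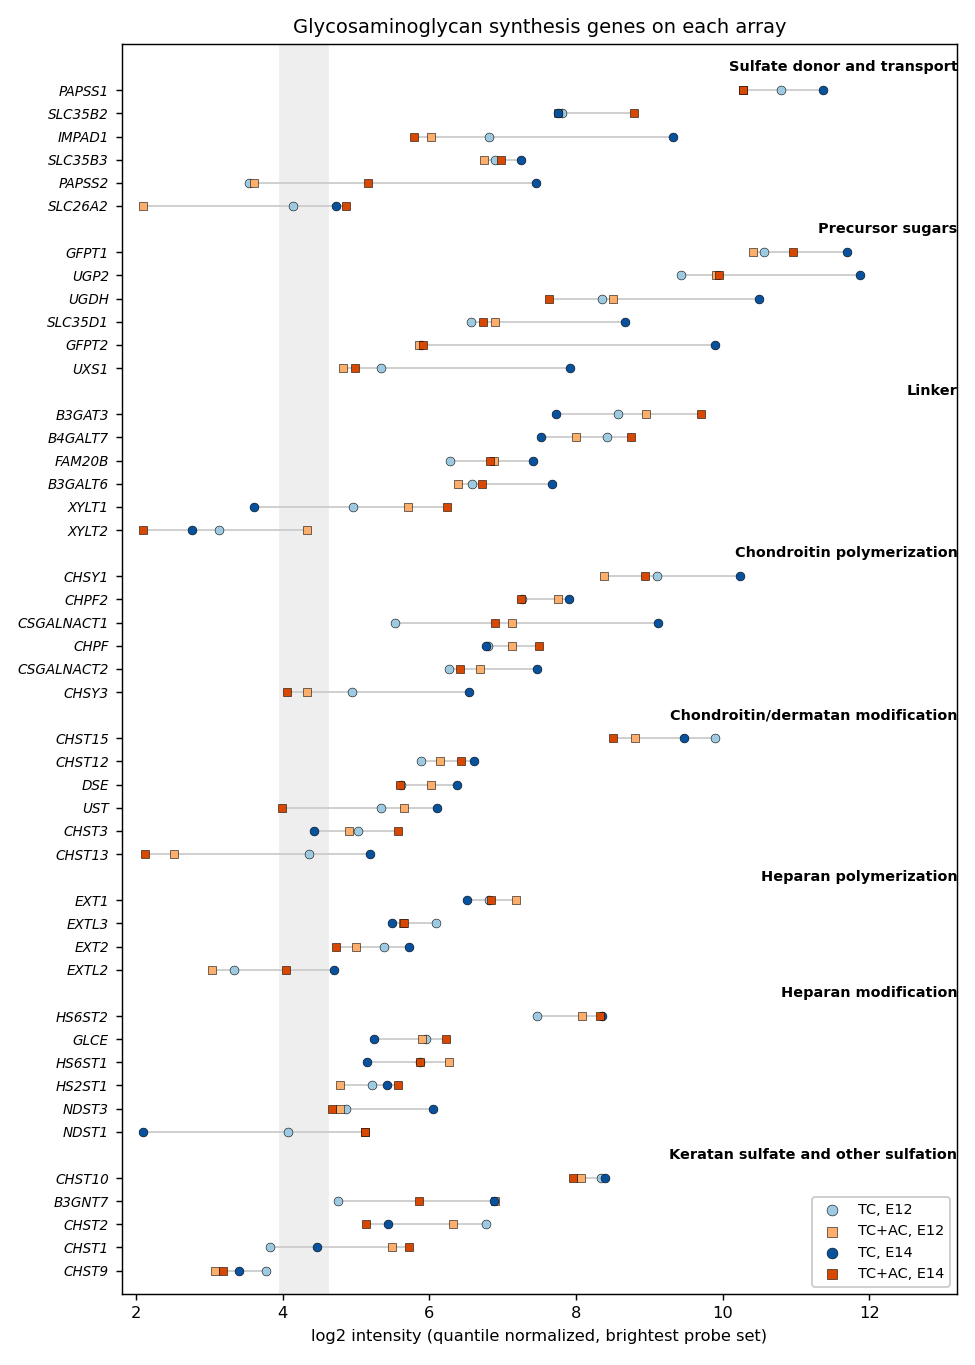
Normalized log2 intensity of the 45 genes on each array, 1 row a gene, circles for TC and squares for TC+AC, pale for E12 and dark for E14. The grey band spans the background of the 4 arrays, and the dark circle of TC at E14 lies to the right for IMPAD1, PAPSS2, the precursor sugar genes and CSGALNACT1.

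The linker genes were mixed. Among the 5 tested, 3 were at least 2-fold higher in TC+AC at E14 (20.3% of all genes) and 0 lower (15.6%). With median centring 2 were higher (12% of all genes) and 1 lower (24.1%). As deposited 1 was higher (2.88%) and 2 lower (53.7%), and with hybridization control scaling 0 were higher (1.14%) and 2 lower (72.6%). B3GAT3, which adds the glucuronic acid that completes the linker, had 380 in TC and 496 in TC+AC at E12, and 212 in TC and 835 in TC+AC at E14. TC+AC was above TC at both stages, by 1.31-fold and 3.94-fold, though the E14 log2 difference of 1.98 was 0.22 with hybridization control scaling (fitted log2 difference 1.18 ± 0.52, limma adjusted p = 0.30). B4GALT7, the first galactosyltransferase, had 342 and 256 at E12, and 184 and 431 at E14, and its E14 difference of 1.23 turned to -0.04 with deposited values and -0.59 with hybridization control scaling. XYLT1, which starts the chain by putting xylose on the core protein, had 30.9 and 52.4 at E12, and 12.1, below background, in TC and 75.4 in TC+AC at E14. XYLT1 was at least 4.85-fold higher in TC+AC at E14 (limma adjusted p = 0.10). Its measured log2 difference of 2.64 was 1.46 as deposited and 0.91 with hybridization control scaling. The other XYLT1 probe sets, at 29.6 and 24.6 in TC at E14, both lay below background in TC+AC at that stage. Their measured log2 tissue differences were -0.42 and -0.35, opposite in sign to the brightest. B3GALT6, the second galactosyltransferase, and FAM20B, the xylose kinase, were 2.11-fold and 2.20-fold higher in TC at E14 than in TC at E12. XYLT2 was above background on 1 array alone, at 20.1 in TC+AC at E12.

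Of 6 tested genes for chondroitin chain growth, 4 were at least 2-fold higher at E14 in TC (8.3% of all genes) and, between the tissues at E14, 4 were at least 2-fold lower in TC+AC (15.6%). Between the stages of TC+AC, 0 were at least 2-fold apart after quantile normalization (4.71% of all genes were higher and 7.92% lower at E14). At least 2-fold lower at E14 were 1 with median centring (22.7% of all genes), 5 as deposited (70.4%) and 3 with hybridization control scaling (61.6%). CSGALNACT1, which puts the first N-acetylgalactosamine on the linker and thereby commits the chain to chondroitin, had 46.025 in TC and 140 in TC+AC at E12, and 554 in TC and 119 in TC+AC at E14. TC was the lower tissue at E12 and the higher at E14, and the TC+AC arrays lay close together after quantile normalization. The TC+AC log2 stage difference of -0.23 was -0.81 with median centring, -1.6 as deposited and -1.44 with hybridization control scaling. The E14 difference was also seen on its other probe set, at -2.02 against -2.22, but the E12 difference was 0.20 there against 1.6.

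CHSY1, a chondroitin synthase, had 551 in TC and 332 in TC+AC at E12, and 1200 and 491 at E14. TC was above TC+AC within each stage (limma adjusted p = 0.37), and the TC value at E12 lay above both TC+AC values. CHSY3, another synthase, had 30.9 and 20.1 at E12, and 92.6 and 16.6 at E14, the last below background, which makes it at least 3.77-fold lower in TC+AC at E14 (adjusted p = 0.14). CSGALNACT2, a second initiating enzyme, was 2.29-fold higher in TC at E14 than in TC at E12. The polymerizing factors CHPF, between 109 and 180, and CHPF2, between 152 and 240, were under 2-fold apart in each pair after quantile normalization. At E14 the CHPF2 tissue difference of -0.65 was -1.07 with median centring, -1.89 as deposited and -2.44 with hybridization control scaling, and that of CHPF turned from 0.73 to -0.53 as deposited and -1.08 with hybridization control scaling.

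Of the 5 tested enzymes that modify chondroitin and dermatan, 0 were at least 2-fold higher at E14 in TC (8.3% of all genes), and 3 were with hybridization control scaling (21.9%). CHST15, which adds a second sulfate to N-acetylgalactosamine, had 952 in TC and 448 in TC+AC at E12, and 711 in TC and 363 in TC+AC at E14. Both TC values exceeded both TC+AC values, by 2.12-fold at E12 and 1.96-fold at E14 (fitted log2 difference -1.03 ± 0.50, limma adjusted p = 0.36). CHST3, the chondroitin 6-sulfotransferase of a human spondyloepiphyseal dysplasia, had 32.65 and 30.025 at E12, and 21.6 and 47.4 at E14, and its E14 difference of 1.14 turned to -0.47 with hybridization control scaling. CHST12, a chondroitin 4-sulfotransferase, stayed between 59.1 and 97.4, and the dermatan epimerase DSE between 48.5 and 82.6. UST, the uronyl 2-sulfotransferase, had 40.4 and 50.5 at E12, and 68.9 in TC at E14. Its TC+AC value at that stage, 15.8, was below background. Another UST probe set had the opposite order at E14, with 26.45 in TC+AC and a value below background in TC. CHST13, another 4-sulfotransferase, was above background in TC alone, at 20.5 and 36.3, against 5.7 and 4.35 in TC+AC. With background in place of those TC+AC values CHST13 was at least 1.07-fold and 1.48-fold lower, and it was too dim for the test.

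Of the 3 tested genes for heparan chain growth, 0 were at least 2-fold apart in any pair by the brightest probe set after quantile normalization. With hybridization control scaling 3 were lower in TC+AC at E14, as were 72.6% of all genes. EXT1, which with EXT2 forms the heparan polymerase, had 112 and 145 at E12, and 91.5 and 114 at E14, with TC+AC above TC by 1.29-fold and 1.25-fold. The E14 log2 difference of 0.32 turned to -0.10 with median centring, -0.92 as deposited and -1.47 with hybridization control scaling. The other EXT1 probe set had tissue differences of -0.34 at E12 and -1.73 at E14, with TC+AC at E14 below background. EXT2 had 41.8 and 31.98 at E12, and 52.8 and 26.4 at E14. EXTL3, which starts the heparan chain, stayed between 44.8 and 68.2, and EXTL2, a related transferase, cleared background on 1 array, that of TC at E14.

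Among the genes that modify heparan, HS6ST2, a 6-sulfotransferase, had 177 in TC and 270 in TC+AC at E12, and 328 and 322 at E14. TC at E12 was the low array. The E14 tissue difference of -0.03 was -1.26 as deposited and -1.81 with hybridization control scaling, and a second probe set, above background throughout, had 0.98. HS6ST1 stayed between 35.3 and 76.8, HS2ST1, the 2-sulfotransferase, between 27.5 and 47.4, and GLCE, the epimerase of glucuronic acid, between 37.8 and 74.8. NDST3, an N-deacetylase and sulfotransferase, had 29.0 and 27.5 at E12, and 66.2 and 25.5 at E14. NDST1, the related enzyme, had 34.6 in TC+AC at each stage and lay below background in TC at each, and was at least 1.84-fold and 2.23-fold higher in TC+AC; it was too dim for the test.

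The last group serves keratan sulfate and other sugar chains. B3GNT7, which extends keratan chains, had 27.1 in TC and 119 in TC+AC at E12, and 118 in TC and 58.2 in TC+AC at E14. The order of the tissues differed between the stages, from 4.41-fold higher in TC+AC at E12 to 2.02-fold lower at E14. CHST1, the keratan galactose 6-sulfotransferase, had 14.2, below background, in TC and 44.7 in TC+AC at E12, and 22.2 in TC and 52.9 in TC+AC at E14. Both TC+AC values lay above both TC values, by at least 2.37-fold at E12 and by 2.38-fold at E14, and the gene was too dim for the test. The E14 difference turned to -0.39 with hybridization control scaling. CHST2, an N-acetylglucosamine 6-sulfotransferase, had 110 in TC and 79.9 in TC+AC at E12, and 43.4 and 35.2 at E14. Both E12 values lay above both E14 values, by 2.53-fold in TC and 2.27-fold in TC+AC (fitted log2 difference -1.26 ± 0.50, limma adjusted p = 0.51; 1.49% of all genes were at least 2-fold lower at E14 in both tissues). CHST10, which sulfates the HNK-1 sugar epitope, had 325 and 268 at E12, and 337 and 249 at E14. CHST9 lay below background on every array.

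Of the 45 genes, 27 had more than 1 probe set. In TC, 31 of the other probe sets, of 23 genes, were above background at E12 or E14, and 16 of them had the sign of the brightest probe set for the stage difference and 15 the opposite, by measured values that include some below background at 1 of the stages. Where the brightest probe set was at least 2-fold apart, 11 of 16 other probe sets were at least 2-fold apart in the same direction. GFPT1, UGDH, CSGALNACT1 and CSGALNACT2 were among the genes whose compared probe sets were all at least 2-fold higher in TC at E14, whereas those of UGP2, above background on each array, differed in sign. In TC+AC no other probe set was at least 2-fold apart in the direction of a brightest one that was (0 of 2).

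**Figure D4:**
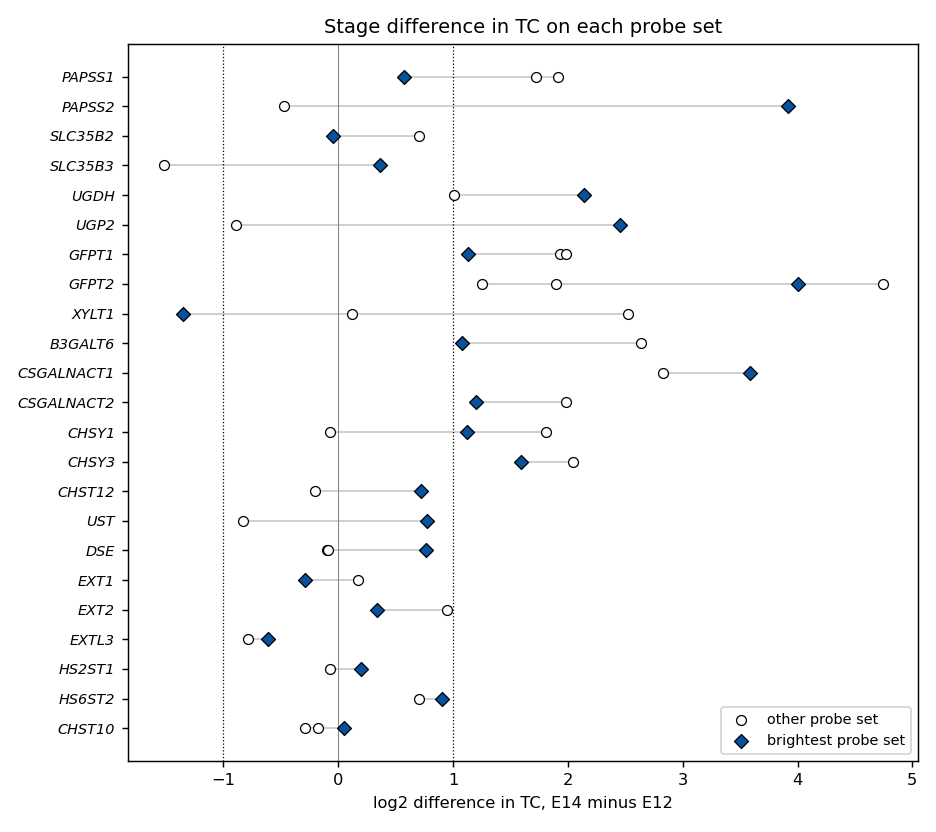
Log2 difference between E14 and E12 in TC on each probe set that was above background at either stage, for the 23 genes with more than 1 such probe set. Filled diamonds are the brightest probe sets and open circles the others, with dotted lines at 2-fold, and measured values shown where 1 stage was below background. The UGP2 probe sets lie at -0.89 and 2.45.

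Further genes of the pathway, taken from a list of 34 of which 16 were tested, held 0 calls for tissue or stage. In TC, 5 of the 16 were at least 2-fold higher at E14 (8.3% of all genes) and 3 lower (14.1%). The 5, named after their values were seen, were PGM1, which feeds UGP2, with a log2 difference of 2.18, GNPNAT1 of the hexosamine route with 1.22, the heparan endosulfatases SULF1 with 1.95 and SULF2 with 1.23, and B3GNT2 with 1.22. B4GALT1, CANT1 and DSEL were the 3 lower ones, at -1.16, -1.11 and -1.20. PGM3 and UAP1, also of the hexosamine route, and the UDP sugar transporter SLC35B4 were under 2-fold apart, at 0.19, -0.33 and 0.12. Of 11 lysosomal and other breakdown genes tested, 0 were called and 1, HGSNAT, was at least 2-fold higher in TC at E14 (8.3% of all genes).

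Core proteins that carry the chains had 2 calls for tissue among 19 tested, FMOD and GPC2, both higher in TC+AC (0.743% of all genes). For stage there was 1 call, ACAN, higher at E14 (0.141%). The fitted log2 differences were 2.45 ± 0.50 for FMOD (limma adjusted p = 0.0051), 2.38 ± 0.60 for GPC2 (0.040) and 2.71 ± 0.55 for ACAN (0.031). GPC2 was below background in TC at E14, and its fit used the floored value there. Its E14 tissue difference was 4.2 on that value, and at least 2.34 with background in its place. All these calls were lost with no filter on dim genes. The ACAN call was also lost with deposited values, hybridization control scaling or no term for tissue. In TC, 7 of the 19 were at least 2-fold higher at E14 (8.3% of all genes) and 3 lower (14.1%). ACAN, the aggrecan core protein gene, had 340 in TC and 230 in TC+AC at E12, and 5234 in TC and 641 in TC+AC at E14. TC at E14 was again the high array. EPYC, a small leucine-rich core protein of cartilage, had 900 and 298 at E12, and 3868 and 1398 at E14, lower in TC+AC within each stage. FMOD went the other way, with 105 in TC and 652 in TC+AC at E12, and 411 and 1981 at E14. So did OGN, with 66.8 and 255 at E12, and 124 and 412 at E14 (limma adjusted p = 0.058 for tissue). At both stages 2 of the 19 were at least 2-fold higher in TC+AC (2.49% of all genes) and 1, EPYC, lower (1.4%). Of 10 cartilage genes 9 were at least 2-fold higher in TC at E14 than at E12 (8.3% of all genes). At least 2-fold lower were 4 of 5 erythroid and 3 of 3 tested muscle genes (14.1% of all genes). The part of sample makeup and of RNA quality in the differences of the glycosaminoglycan genes was not tested.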

How the data were processed

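The labels give 5 µg of total RNA per sample, and biotin-labelled RNA was hybridized to 4 Affymetrix chicken arrays. The deposited table holds linear intensities of 38535 probe sets on each array. Both the summary method and the scaling remain not given in the sources used here. After 96 control probe sets were left out, intensities were quantile normalized, floored at the 20th percentile (4.275) and taken to log2 (R 4.3.3, limma 3.58.1; figures with matplotlib 3.10.9). GEO's platform annotation gave 1 symbol for 27178 probe sets, several for 177 and none for 11180. The dimmest 40% of genes by mean were dropped before testing, leaving 7805. limma (lmFit, eBayes) had additive terms for tissue and stage and Benjamini-Hochberg adjustment at 0.05. In simulated data with 200 changed genes it called 5.97% of 2-fold, 76.1% of 4-fold and 98.5% of 8-fold tissue changes, with 7 false calls. The simulated noise followed the fit's own variance estimate, so arrays of unlike quality were not covered. Each simulated tissue change was the same at both stages and no stage change was added. Tissue differences that vary with stage, and the stage calls, were thus not covered either. Background was the 95th percentile of 541 virus probe sets on each array (15.6 to 24.6), and folds against dimmer values are bounds with background in their place. For arrays, their number limits the precision. Members, role groups and other lists were chosen with earlier results of these data known. By a fixed rule, values on all arrays are given for members called, members at least 2-fold the same way in both pairs and the brightest of each role; others were added after their values were seen.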

Additional observations from a re-analysis of the deposited data

Results flagged for a closer look

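In 2 genes, by the brightest probe set, the tissue difference was at least 2-fold in opposite directions at the stages, which 0.512% of all tested genes showed. For CSGALNACT1 the log2 difference of TC+AC minus TC was 1.6 at E12 and -2.22 at E14. Its other probe set, above background on each array, had 0.20 at E12 and -2.02 at E14, so it lacked the 2-fold difference at E12. For B3GNT7 the log2 difference was 2.14 at E12 and -1.02 at E14. Each value compares 1 array with 1 array, and the change between the stages was not tested.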

How the results depend on the processing

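The 4 arrays give no replicate within a group, and fits on 3 arrays drop the term for the other factor and treat arrays of different stage or tissue as repeats. No paired analysis was possible because each group is 1 array and the labels carry no replicate numbers; stage and tissue are already terms of the fit. The cause of the changes below was not tested. Of all genes, limma called 115 for tissue and 20 for stage. With values as deposited it called 32 and 0, with hybridization control scaling 26 and 0, with no dim filter 0 and 0, with the lowest 60% left out 217 and 32, with the mean of all probe sets 29 and 1, and with no term for the other factor 12 and 0; median centring gave 68 for stage. At an unadjusted p under 0.05 the counts of 0 stood beside 715 for tissue with no dim filter, and for stage beside 370 as deposited, 77 with hybridization controls, 567 with no dim filter and 235 with no other term. Leaving out each array gave 0 to 883 for tissue, the 883 without TC at E12 and 0 without either TC+AC array (570 and 213 at an unadjusted p under 0.05), and 0 to 1 for stage. Of the 38 members the tissue call was 1, and 0 as deposited, with hybridization controls, with no dim filter, with mean probe sets and with no other term, 2 with median centring or the lowest 60% left out, and 0 to 10 with arrays left out. The stage call was 1, and 0 in those same 5 settings and with each array left out (0 to 0). Members at least 2-fold the same way at both stages numbered 0 (2.49% of all genes were higher and 1.4% lower in TC+AC). The count was 1 with median centring or hybridization controls and 3 with no dim filter. For both tissues the count was 2 (0.897% of all genes were higher and 1.49% lower at E14). It was 1 as deposited, with mean probe sets or with background in place of dim values, and 0 with hybridization controls or the lowest 60% left out. For these 2 counts the share of all genes was not computed in the other settings, so the changes cannot be set against it. TC at E14 was highest by at least 2-fold in 11 members, 17 with hybridization controls (16.9% of all genes against 4.45%) and 7 with the lowest 60% left out. At E14, 15 were lower in TC+AC, 27 as deposited (53.7% of all genes), 31 with hybridization controls (72.6%) and 9 with the lowest 60% left out (13.8%). The E14 tissue differences of members such as SLC35B2, B4GALT7, CHPF, CHST3 and EXT1 changed sign with the scaling, as given above. Fitted differences were followed across settings for IMPAD1, PAPSS2 and CHST2 alone, and their directions reversed in 4 cases. The tissue difference of PAPSS2 was 0.85 without TC at E14. That of CHST2 was 0.29 without TC at E12 and 0.21 without TC+AC at E14. The stage difference of IMPAD1 was -0.63 without TC at E14. With each array left out the ranges were -3.07 to 0.85, -1.05 to 0.29 and -0.63 to 2.9. The count of 16 members higher in TC at E14 (8.3% of all genes) stayed between 11 and 21. It was 11 with the lowest 60% left out (7.86%), where fewer members were tested, and 21 with hybridization controls (21.9%). Signal over background limits the 10 members above background on 1 to 3 arrays and CHST9 on 0.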
